A study of Mus musculus with 14 samples.

Results

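Cytokine receptors and the components of JAK-STAT signalling were followed on 14 microarrays of mouse macrophages. The members were the probes whose gene symbol named a numbered interleukin receptor, an interferon or colony-stimulating factor receptor, a JAK kinase or Tyk2, a STAT, a PIAS protein or one of Socs2 to Socs7, with Il1rn and Il1r2 left out. The rule uses names and no measured value. It found 43 probes of 41 genes, out of 10012 probes of 8841 named genes, with Stat3 and Pias2 each on 2 probes. Of the 43 probes, 28 lay above the 20th percentile of intensity on all 14 arrays, 14 on some arrays and 1, the IL-25 receptor Il17rb, on none. The other 42 were tested.

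The cells were macrophages drawn into the peritoneum of female C57BL/6 mice aged 6 weeks with thioglycollate, an irritant broth, and each of 7 groups had 2 arrays of biological replicates. The groups were GW3965 with LPS, GW7845 with LPS, LPS alone, GW3965 with poly(I:C), GW7845 with poly(I:C), poly(I:C) alone and untreated cells. LPS (lipopolysaccharide) comes from bacterial walls and acts through TLR4, and poly(I:C) is a synthetic double-stranded RNA that TLR3 recognises. GW3965 activates the liver X receptors (LXRs) and GW7845 activates PPARγ, both of them nuclear receptors for lipids. The series asks how these agonists dampen Toll-like receptor responses. No group had an agonist without a stimulus. The labels state neither dose nor time, nor how many animals stand behind a replicate.

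A cytokine brings its receptor chains together, the JAK kinases bound to them phosphorylate STAT proteins, and the STATs enter the nucleus and switch on target genes. PIAS proteins bind STATs and limit their activity. SOCS proteins are made in response to many cytokines and shut the receptor or its kinase down again, and in macrophages this loop is best known for the answer to interferons, IL-6 and IL-10.

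The intensities were scaled by the authors so that the median probe of every array had the value 1, which is 0 on the log2 scale used below. The arrays fell into 2 sets of 7, set A and set B, split by intensity at the dim end. The labels do not name these sets. At the dim end, the 10th percentile lay at 0.137 to 0.271 on set A and at 0.0549 to 0.0833 on set B, and every group had 1 array in each. Differences were fitted with limma, and again with the array set as a block, which is called the array-set fit. Calls were made at a Benjamini-Hochberg adjusted p under 0.05 over the 9584 probes tested. Fold changes are differences of log2 means, so that +1 is 2-fold higher, given with their standard error (SE). All groups have n = 2 arrays, which limits the precision of every value. The 2 log2 intensities of a group are given as replicate 1 and then replicate 2. This is set A and then set B, except in GW7845 with LPS, where it is the reverse. Of 9 macrophage markers 8 were above the 20th percentile on all 14 arrays, as were 6 of 14 markers of T and NK cells, 9 of 12 B cell markers and 3 of 9 neutrophil markers. So were 5 of 8 mast cell, 1 of 4 eosinophil, 2 of 3 dendritic cell and 5 of 11 fibroblast and mesothelial markers. The share of all probes was not counted, so these counts do not show whether a cell type was present.

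Both stimuli raised a small part of the machinery, from one receptor chain to kinase, STATs and feedback inhibitors, and left most receptors without a call. Under LPS, limma called 9 of the 42 tested members against 7.8% of all probes, 8 of them higher against 5.21% and 1 lower against 2.6%. Higher were Socs3, Stat2, Il15ra, Jak2, Socs2, Stat5b, 1 of the 2 Stat3 probes and Stat5a, and lower was Socs6. Under poly(I:C) it called 8 members, the same ones without Stat5b, against 8.86% of all probes, 7 higher against 6.08% and 1 lower against 2.78%. Both comparisons use the same untreated arrays and are not independent. The array-set fit called 13 members under LPS against 17.8% of all probes, 9 higher against 9.58% and 4 lower against 8.18%. Under poly(I:C) it called 12 against 18.7%, 9 higher against 10.6% and 3 lower against 8.03%. The median member changed by +0.48 under LPS, against +0.06 for all probes tested, and 30 of the 42 were above 0, against 53.6% of all probes. Under poly(I:C) the median member was at +0.63, against +0.10 for all probes, and 31 were above 0, against 55.6% of all probes. A higher value in bulk RNA can mean more RNA in each cell or more cells of a type that makes it, and these arrays cannot tell them apart.

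**Figure D1:**
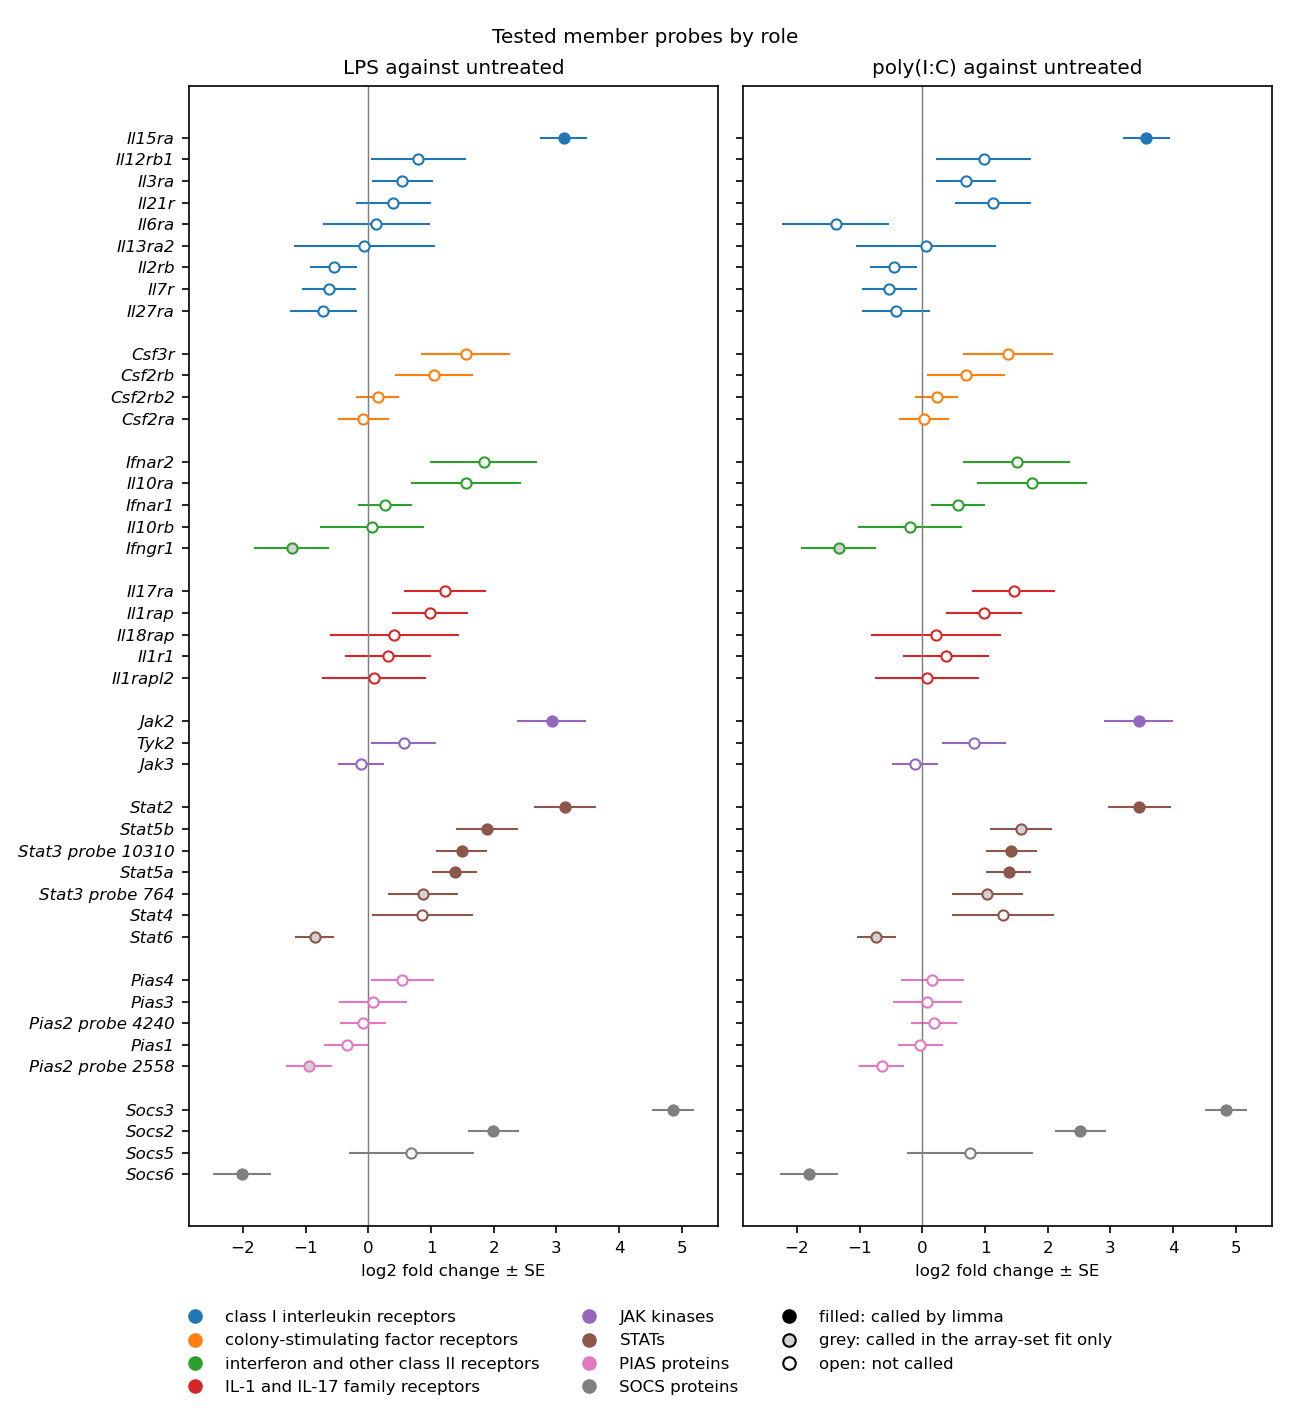
Log2 fold change of the 42 tested members, grouped by role, under LPS and under poly(I:C), each against untreated cells; points are estimates, bars their SE, and the fill shows which fit called the probe. Socs3 lies farthest to the right in both panels, at +4.86 and +4.84, and Socs6 farthest to the left under LPS, at -2.01.

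The genes with the largest increases differ in the letters near their start sites. The sequences are 300 bases from the RefSeq promoter table (build GRCm38.p6), 250 before and 50 after the annotated start, on the gene's own strand. Of the 9 genes called under either stimulus, 7 had an entry. The following motifs were searched on both strands: the STAT element GAS (TTCNNNGAA), the interferon element ISRE (GAAANNGAAA) and the NF-kB site. The windows of Socs3, at chr11:117969317-117969616 on the minus strand, of Stat2, at chr10:128270248-128270547 on the plus strand, and of Il15ra, at chr2:11705043-11705342 on the plus strand, are shown because these genes had the largest increases of a SOCS, a STAT and a receptor. Capitals mark a motif match.
Socs3: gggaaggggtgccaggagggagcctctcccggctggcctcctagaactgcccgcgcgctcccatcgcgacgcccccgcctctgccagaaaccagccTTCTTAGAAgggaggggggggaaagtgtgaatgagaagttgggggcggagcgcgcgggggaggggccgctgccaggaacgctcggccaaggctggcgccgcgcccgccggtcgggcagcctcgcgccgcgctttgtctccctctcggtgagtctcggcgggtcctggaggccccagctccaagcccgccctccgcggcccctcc
Stat2: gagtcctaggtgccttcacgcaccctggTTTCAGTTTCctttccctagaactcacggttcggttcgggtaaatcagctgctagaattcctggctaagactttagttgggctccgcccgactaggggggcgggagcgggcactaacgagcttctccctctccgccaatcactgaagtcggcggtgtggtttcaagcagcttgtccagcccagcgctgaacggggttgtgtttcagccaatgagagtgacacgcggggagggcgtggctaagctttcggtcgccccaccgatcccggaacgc
Il15ra: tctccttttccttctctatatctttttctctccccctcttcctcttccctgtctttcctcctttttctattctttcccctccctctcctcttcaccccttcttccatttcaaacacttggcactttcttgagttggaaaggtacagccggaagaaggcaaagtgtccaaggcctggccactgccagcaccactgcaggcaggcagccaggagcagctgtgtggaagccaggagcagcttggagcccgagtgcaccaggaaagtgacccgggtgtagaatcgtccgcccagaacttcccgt
The capitals in Socs3 are a GAS match that begins 154 bases before the start, and those in Stat2 an ISRE match on the reverse strand, 222 bases before it. The window of Il15ra, the first of its 2 starts in the table, holds none of the motifs, and neither does that of Jak2, which is not shown. Of the 7 called genes with an entry, Socs3, Stat2 and Stat5a had a match and the others had none. Among all 32851 starts of the table, 8.30% hold GAS, 3.44% ISRE and 8.46% the NF-kB site. Among the 35 starts of the 29 member genes with an entry, 5 hold GAS (Csf2rb2, Ifnar1, Ifnar2, Il7r and Socs3), 3 hold ISRE (Il1rap, Stat2 and Stat4) and 4 hold the NF-kB site (Csf3r, Il1r1, Pias1 and Stat5a). A match is a string of letters, not a measured binding site.

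Receptors come first. Of 9 class I interleukin receptor probes, 1 rose under each stimulus, and it was Il15ra, the chain that holds IL-15 at the cell surface and presents it to neighbouring cells. Its log2 intensity was 2.96 and 3.06 under LPS and 3.18 and 3.75 under poly(I:C), against -0.23 and 0.01 in untreated cells. Stimulated and untreated arrays did not overlap. The increase was +3.12 under LPS (SE 0.37, limma adjusted p = 8.7e-05, set A +3.19, set B +3.05), or 8.67-fold, and +3.57 under poly(I:C) (SE 0.37, limma adjusted p = 2.0e-05), or 11.9-fold. All 12 stimulated arrays, with or without an agonist, lay above both untreated ones. The share of all probes separated in this way was not counted, here or for the members below. The 14 T and NK cell markers had a summed intensity of 47.7 to 77.2 under LPS and 56.8 to 91.8 under poly(I:C), against 26.6 to 38.8 in untreated cells. Most of that difference was 1 gene, the activating receptor Klrk1 (+6.73 under LPS), the only one of the 13 tested markers that limma called. Without Klrk1 the other 13 summed to 29.3 to 38.2 under LPS and 33.8 to 45.7 under poly(I:C), against 26.4 to 38.4 in untreated cells. The median tested marker was at +0.20 under LPS and +0.11 under poly(I:C). The T cell receptor component Cd3e stayed between -3.87, the floor, and -0.91 on all 14 arrays. Other markers were above the array median on all 14, with Cd247 at 1.77 to 3.51 and Gzma at 3.62 to 4.76. The part of these cells in the Il15ra increase was not tested.

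The other 8 class I interleukin receptors were not called under either stimulus in either fit. Il7r, the IL-7 receptor chain and the brightest probe of this class (a property of the probe, since levels of different probes are not comparable), had 5.29 and 5.33 under LPS and 5.37 and 5.44 under poly(I:C), against 5.81 and 6.05 in untreated cells. Both stimuli thus lay below both untreated arrays, by 0.63 (SE 0.44) and 0.53 (SE 0.44), without passing. With an agonist Il7r had 5.64 and 4.81 under GW3965 with LPS, 5.10 and 5.81 under GW7845 with LPS, 5.79 and 4.69 under GW3965 with poly(I:C) and 5.98 and 5.36 under GW7845 with poly(I:C). The remaining log2 fold changes under LPS lay between -0.72 for Il27ra, the IL-27 receptor, and +0.80 for Il12rb1, a chain shared by the IL-12 and IL-23 receptors. In between were Il2rb, the signalling chain for IL-2 and IL-15 (-0.55), the decoy receptor Il13ra2 (-0.06), Il6ra (+0.13), Il21r (+0.40) and Il3ra (+0.54). Under poly(I:C) the same 7 ranged from -1.38 for Il6ra, with 1 poly(I:C) array at the floor, to +1.13 for Il21r. Il13ra2 was above the 20th percentile on only 4 arrays and at the floor on 3. Il12rb1 and Il6ra were above that percentile on 7 arrays each, so small changes of these probes do not show a steady level.

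None of the 4 colony-stimulating factor receptor probes was called under a stimulus. Csf2ra, the binding chain for GM-CSF, had 6.35 and 6.26 under LPS and 6.26 and 6.56 under poly(I:C), against 6.93 and 5.84 in untreated cells. The untreated arrays lay on either side of all 4 others. With an agonist it had 6.10 and 6.17 under GW3965 with LPS, 6.19 and 6.01 under GW7845 with LPS, 5.57 and 6.19 under GW3965 with poly(I:C) and 5.22 and 5.75 under GW7845 with poly(I:C). Csf2rb, the signalling chain shared by GM-CSF, IL-3 and IL-5, was at +1.04 (SE 0.62) under LPS, and its mouse relative Csf2rb2, which serves IL-3, at +0.15 (SE 0.34). Csf3r, the G-CSF receptor, was at +1.55 (SE 0.72) under LPS and +1.37 (SE 0.72) under poly(I:C), with a limma adjusted p of 0.28 and 0.35. Csf3r is abundant in neutrophils, whose 9 markers summed to 32.7 to 48.1 under LPS and 25.6 to 52.5 under poly(I:C), against 17.5 to 30.1 in untreated cells. Nearly all of that sum was S100a8 and Camp, and the other 7 summed to 2.39 to 2.50 under LPS and 2.34 to 2.61 under poly(I:C), against 1.88 to 3.02 in untreated cells. Of the 8 tested, 4 were below 0 under each stimulus and the medians were +0.26 and -0.19. Camp was called higher (+4.59 under LPS) and Prtn3 lower by the array-set fit (-1.53 under LPS). Their part in the Csf3r values was not tested.

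Among the 5 probes for interferon and other class II receptors, limma called none. The array-set fit called Ifngr1, the binding chain of the interferon-γ receptor, as lower under both stimuli. Its log2 intensity was 0.29 and 1.17 under LPS and 0.02 and 1.23 under poly(I:C), against 1.13 and 2.78 in untreated cells. The groups overlapped across the array sets, while within each set both stimuli lay below the untreated array. The change was -1.22 under LPS (SE 0.60, limma adjusted p = 0.32, array-set fit 0.047, set A -0.84, set B -1.61) and -1.33 under poly(I:C) (SE 0.60, limma adjusted p = 0.24, array-set fit 0.029). Without untreated 2 the array-set call ended under both stimuli, as it did without either array of the stimulus. With an agonist it had 1.24 and 2.10 under GW3965 with LPS, 1.21 and 0.09 under GW7845 with LPS, 1.76 and 1.41 under GW3965 with poly(I:C) and 0.91 and 1.11 under GW7845 with poly(I:C).

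Ifnar1, a chain of the type I interferon receptor, did not pass in either fit. It had 4.42 and 4.42 under LPS and 4.86 and 4.59 under poly(I:C), against 4.15 and 4.15 in untreated cells, for changes of +0.27 (SE 0.43) and +0.57 (SE 0.43). With an agonist it had 4.24 and 4.31 under GW3965 with LPS, 3.82 and 4.75 under GW7845 with LPS, 4.82 and 3.57 under GW3965 with poly(I:C) and 3.89 and 4.51 under GW7845 with poly(I:C). Its partner Ifnar2 was at +1.84 (SE 0.85) under LPS and +1.51 (SE 0.85) under poly(I:C), and missed the threshold in both fits, with an adjusted p of 0.056 under LPS in the array-set fit. The IL-10 receptor chain Il10ra was at +1.56 (SE 0.88) and +1.76 (SE 0.88), and the second chain, Il10rb, at +0.06 and -0.20 (SE 0.83 each).

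The IL-1 and IL-17 family receptors signal through MyD88 or Act1 and not through JAKs, and they were grouped here by name. None of their 5 tested probes was called. Il1r1, the signalling receptor for IL-1, had -0.50 and -1.51 under LPS and -0.30 and -1.59 under poly(I:C), against -0.47 and -2.18 in untreated cells. The groups overlapped, and the array of set A was the higher one in these 3 groups. With an agonist it had -0.07 and -1.19 under GW3965 with LPS, 0.25 and -0.37 under GW7845 with LPS, -0.85 and -1.79 under GW3965 with poly(I:C) and -0.89 and -1.55 under GW7845 with poly(I:C). Il17ra, the shared IL-17 receptor chain, was at +1.22 (SE 0.66) under LPS and +1.46 (SE 0.66) under poly(I:C), and the IL-1 co-receptor Il1rap at +0.98 and +0.99 (SE 0.61 each). Il18rap, the IL-18 co-receptor, was at +0.42 (SE 1.03) and the brain-expressed Il1rapl2 at +0.09 (SE 0.83) under LPS. Il18rap was above the 20th percentile on only 5 arrays.

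Of the 3 kinase probes, Jak2 rose. Jak2 is the kinase that serves the receptors for GM-CSF, IL-3 and interferon-γ, among others. Its log2 intensity was 4.16 and 2.73 under LPS and 4.57 and 3.36 under poly(I:C), against 0.90 and 0.15 in untreated cells. Every stimulated array lay above both untreated ones. The increase was +2.93 under LPS (SE 0.55, limma adjusted p = 0.0034, set A +3.26, set B +2.59), or 7.60-fold, and +3.45 under poly(I:C) (SE 0.55, limma adjusted p = 0.00088), or 10.9-fold. Without LPS 1 the increase under LPS was +2.21 and missed the threshold (limma adjusted p = 0.051). With an agonist Jak2 had 3.12 and 2.58 under GW3965 with LPS, 3.21 and 3.95 under GW7845 with LPS, 3.81 and 3.08 under GW3965 with poly(I:C) and 4.26 and 3.49 under GW7845 with poly(I:C).

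Tyk2, which pairs with the type I interferon and IL-12 receptors, had 4.69 and 3.88 under LPS and 5.02 and 4.07 under poly(I:C), against 4.23 and 3.21 in untreated cells. The groups overlapped, although within each set both stimuli were higher than the untreated array. Its change of +0.56 (SE 0.52) under LPS and +0.83 (SE 0.52) under poly(I:C) did not pass, the array-set adjusted p being 0.050 under poly(I:C), just above the threshold. With an agonist it had 3.71 and 3.46 under GW3965 with LPS, 3.60 and 4.16 under GW7845 with LPS, 4.49 and 4.01 under GW3965 with poly(I:C) and 5.36 and 4.01 under GW7845 with poly(I:C). Jak3, the kinase of the common γ chain, was at -0.12 (SE 0.36) under both stimuli.

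Of the 7 STAT probes, limma called 4 higher under LPS and 3 under poly(I:C), and none lower. Stat2, which acts in the answer to type I interferon, changed most. It had 2.97 and 3.75 under LPS and 3.10 and 4.26 under poly(I:C), against -0.36 and 0.80 in untreated cells, with no overlap. The increase was +3.14 under LPS (SE 0.50, limma adjusted p = 0.00092, set A +3.33, set B +2.95), or 8.81-fold, and +3.46 under poly(I:C) (SE 0.50, limma adjusted p = 0.00036). With an agonist Stat2 had 3.05 and 3.31 under GW3965 with LPS, 3.46 and 3.61 under GW7845 with LPS, 3.82 and 3.83 under GW3965 with poly(I:C) and 3.01 and 4.09 under GW7845 with poly(I:C).

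**Figure D2:**
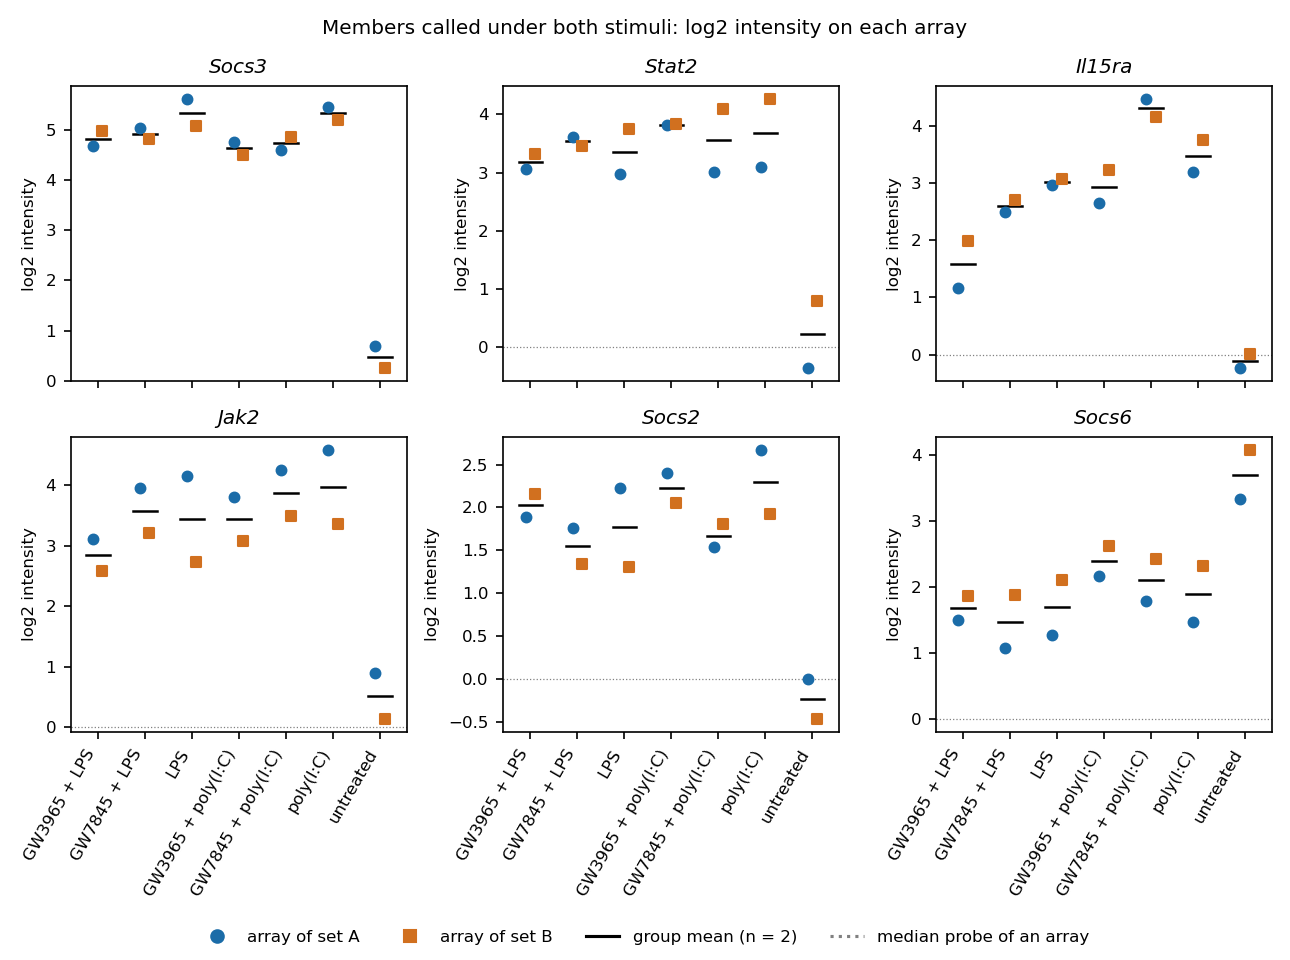
Log2 intensity of 6 of the 8 members called by limma under both stimuli, on each of the 14 arrays. Symbols give the array set, bars the group mean of 2 arrays, and 0 is the median probe of an array. In the panels of Socs3, Stat2, Il15ra, Jak2 and Socs2 all 12 stimulated arrays lie above both untreated ones, and in that of Socs6 all 12 lie below them. Of the members not shown, Stat5a has all 12 above and Stat3 probe 10310 has 8. Members were called against the same untreated arrays, and the share of all probes separated in this way was not counted.

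Stat5a and Stat5b, the near-identical STATs that act downstream of GM-CSF, IL-3 and IL-2, rose less. Stat5a had 1.95 and 2.47 under LPS and 2.04 and 2.39 under poly(I:C), against 0.87 and 0.80 in untreated cells, for +1.37 (SE 0.36, limma adjusted p = 0.029) and +1.38 (SE 0.36, limma adjusted p = 0.026). Stat5b had -0.21 and 0.33 under LPS and -0.67 and 0.16 under poly(I:C), against -2.31 and -1.35 in untreated cells, for +1.89 (SE 0.50, limma adjusted p = 0.030) and +1.58 (SE 0.50, limma adjusted p = 0.069, array-set fit 0.0031). In both genes all 12 stimulated arrays lay above both untreated ones. Stat5a lost its limma calls on the omission of any single array compared, and Stat5b lost its call under LPS without LPS 1, LPS 2 or untreated 1, with increases of 1.11 to 1.64 for Stat5a and 1.27 to 2.37 for Stat5b over all alternatives under LPS. With an agonist Stat5a had 2.51 and 2.28 under GW3965 with LPS, 1.89 and 2.16 under GW7845 with LPS, 2.19 and 1.71 under GW3965 with poly(I:C) and 0.92 and 1.51 under GW7845 with poly(I:C). Stat5b had 0.15 and 0.17 under GW3965 with LPS, -0.20 and -0.91 under GW7845 with LPS, -0.66 and -0.12 under GW3965 with poly(I:C) and -0.74 and -0.13 under GW7845 with poly(I:C). Because their coding sequences are so alike, a probe may read both genes.

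Stat3, the STAT of IL-6 and IL-10, was measured by 2 probes, which differed. The brighter, probe 764, had 4.51 and 5.12 under LPS and 4.46 and 5.50 under poly(I:C), against 3.35 and 4.53 in untreated cells, and the groups overlapped across the sets. Its change of +0.87 (SE 0.56) under LPS and +1.04 (SE 0.56) under poly(I:C) was called by the array-set fit alone (adjusted p = 0.040 and 0.015). Probe 10310 had 3.78 and 3.80 under LPS and 3.88 and 3.56 under poly(I:C), against 2.69 and 1.91 in untreated cells, without overlap. It rose by 1.49 under LPS (SE 0.41, limma adjusted p = 0.038) and by 1.42 under poly(I:C) (SE 0.41, limma adjusted p = 0.044). Both limma calls of probe 10310 ended without untreated 2 or without either array of the stimulus, with increases of 1.10 to 1.88 under LPS and 1.03 to 1.81 under poly(I:C) over all alternatives. The array-set calls of probe 764 ended without untreated 1 or without either array of the stimulus, and under LPS also without untreated 2. With an agonist probe 764 had 5.22 and 4.39 under GW7845 with LPS and 4.20 and 5.67 under GW7845 with poly(I:C), and probe 10310 had 3.11 and 2.33 under GW7845 with LPS and 3.43 and 3.66 under GW7845 with poly(I:C). The GW3965 values of both probes stand with the comparison of that agonist.

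Stat6, the STAT of IL-4 and IL-13, was called lower by the array-set fit alone. That fit called 9.52% of members lower under LPS, against 8.18% of all probes. Under poly(I:C) it called 7.14% of members lower, against 8.03%. These shares are close. Stat6 had 2.81 and 2.87 under LPS and 2.78 and 3.15 under poly(I:C), against 3.71 and 3.68 in untreated cells, and all 12 stimulated arrays were below both untreated ones. The change was -0.86 under LPS (SE 0.32, limma adjusted p = 0.14, array-set fit 0.020) and -0.73 under poly(I:C) (SE 0.32, limma adjusted p = 0.22, array-set fit 0.042). The array-set call ended under LPS without LPS 1, LPS 2 or untreated 1, and under poly(I:C) without any 1 of the 4 arrays. With an agonist Stat6 had 2.70 and 3.04 under GW3965 with LPS, 2.91 and 2.81 under GW7845 with LPS, 2.89 and 3.27 under GW3965 with poly(I:C) and 2.67 and 2.90 under GW7845 with poly(I:C). Stat4, the STAT of IL-12, was at +0.86 (SE 0.81) under LPS and +1.29 (SE 0.81) under poly(I:C) and did not pass.

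No PIAS probe was called by limma, and the array-set fit called 1, under LPS. Pias1 had 3.26 and 2.92 under LPS and 3.56 and 3.25 under poly(I:C), against 3.49 and 3.37 in untreated cells, for -0.34 and -0.03 (SE 0.36 each). With an agonist it had 2.88 and 2.87 under GW3965 with LPS, 2.59 and 3.06 under GW7845 with LPS, 3.47 and 2.68 under GW3965 with poly(I:C) and 3.51 and 3.09 under GW7845 with poly(I:C). Pias2 was measured by 2 probes that did not move alike. The brighter, probe 4240, was at -0.08 and +0.19 (SE 0.36 each), with 2.96 and 2.74 under LPS and 3.25 and 2.99 under poly(I:C), against 3.02 and 2.85 in untreated cells. Probe 2558 had 0.55 and 0.32 under LPS and 1.08 and 0.39 under poly(I:C), against 1.40 and 1.36 in untreated cells. All 12 stimulated arrays lay below both untreated ones for probe 2558. Its change of -0.95 under LPS (SE 0.36, limma adjusted p = 0.16) was called by the array-set fit (0.043), a call that ended on leaving out any single array of the comparison, and the -0.65 under poly(I:C) was not. With an agonist probe 2558 had 0.50 and 0.54 under GW3965 with LPS, 0.58 and 0.26 under GW7845 with LPS, 0.77 and 0.85 under GW3965 with poly(I:C) and 1.23 and 0.80 under GW7845 with poly(I:C). Pias3, the inhibitor of Stat3, was at +0.07 and +0.08 (SE 0.54 each), and Pias4 at +0.54 and +0.16 (SE 0.50 each).

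The SOCS genes held the largest change of all members, in both directions. Socs3, the inhibitor that IL-6 family cytokines induce and that blocks the shared receptor gp130, had 5.60 and 5.07 under LPS and 5.45 and 5.20 under poly(I:C), against 0.70 and 0.26 in untreated cells. The groups were far apart in both sets. The increase was +4.86 under LPS (SE 0.34, limma adjusted p = 4.1e-07, set A +4.90, set B +4.81), or 29.0-fold, and +4.84 under poly(I:C) (SE 0.34, limma adjusted p = 4.0e-07), or 28.7-fold. With an agonist Socs3 had 4.67 and 4.98 under GW3965 with LPS, 4.81 and 5.03 under GW7845 with LPS, 4.76 and 4.50 under GW3965 with poly(I:C) and 4.59 and 4.87 under GW7845 with poly(I:C). All 8 of these were below the arrays of their own stimulus, the gap being small beside that to untreated cells.

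Socs2, best known as the brake on growth hormone signalling, had 2.23 and 1.31 under LPS and 2.67 and 1.93 under poly(I:C), against 0.01 and -0.46 in untreated cells. It rose by 1.99 under LPS (SE 0.41, limma adjusted p = 0.0060), or 3.98-fold, and by 2.52 under poly(I:C) (SE 0.41, limma adjusted p = 0.00095), or 5.74-fold. The call under LPS ended without LPS 1 or untreated 2, with an adjusted p of up to 0.094 over all alternatives. With an agonist Socs2 had 1.89 and 2.16 under GW3965 with LPS, 1.35 and 1.76 under GW7845 with LPS, 2.40 and 2.05 under GW3965 with poly(I:C) and 1.54 and 1.80 under GW7845 with poly(I:C). All 12 stimulated arrays exceeded both untreated ones.

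Socs6, a family member tied to receptor tyrosine kinases rather than to the classical cytokine loop, went the other way. It had 1.28 and 2.11 under LPS and 1.48 and 2.32 under poly(I:C), against 3.33 and 4.08 in untreated cells. The decrease was -2.01 under LPS (SE 0.46, limma adjusted p = 0.012, set A -2.06, set B -1.97), or 4.04-fold lower, and -1.81 under poly(I:C) (SE 0.46, limma adjusted p = 0.022), or 3.50-fold lower. The limma calls ended without untreated 2 or without replicate 1 of the stimulus, with changes of -2.43 to -1.60 under LPS and -2.23 to -1.38 under poly(I:C) over all alternatives. With an agonist Socs6 had 1.50 and 1.87 under GW3965 with LPS, 1.87 and 1.07 under GW7845 with LPS, 2.16 and 2.63 under GW3965 with poly(I:C) and 1.79 and 2.43 under GW7845 with poly(I:C). Socs5, dim on most arrays, was at +0.69 (SE 1.00) under LPS and did not pass.

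The other genes of the pathway were taken from lists drawn up by role. They stand beside 5.21% of all probes called higher and 2.6% lower under LPS, with a median of +0.06, and 6.08% and 2.78% under poly(I:C), with a median of +0.10. Of 26 cytokines, limma called 12 higher and 1 lower under LPS, with a median of +1.42, and 13 higher and 1 lower under poly(I:C), with a median of +1.66. Under LPS the largest were the cytokines Il6 at +10.88, Il1b at +10.60, the IL-12 subunit Il12a at +8.72 and Il1a at +7.01. The 1 lower was Il16, which binds CD4 and is no ligand of a member receptor, at -2.34 under LPS and -3.62 under poly(I:C). Il15, the ligand of the receptor chain that rose, was at +3.55 under LPS and +4.09 under poly(I:C). Of 9 further receptors of the pathway none was called by limma, and the array-set fit called Crlf3 higher under both, Ghr, the growth hormone receptor, lower under LPS (-1.20) and Il6st, the shared chain gp130, lower under poly(I:C) (-1.0). A list drawn up as inhibitors held 11 further genes, not all of which only inhibit. Of these 3 rose under each stimulus, with list medians of +0.99 and +0.85. They were led by Socs1, the SOCS protein that blocks JAK kinases, at +5.91 under LPS and +6.96 under poly(I:C), and Cish, a STAT5 feedback inhibitor, at +2.98 and +2.77. The third was the adaptor Sla (+1.74) under LPS and the phosphatase Ptpn2 (+2.06) under poly(I:C). Of 30 tested STAT target genes 14 rose under each stimulus and none fell in limma, with medians of +1.47 and +1.64, and the interferon-induced chemokine Cxcl10 and GTPases Gbp4 and Gbp3 were at +10.51, +6.82 and +6.31 under LPS.

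**Figure D3:**
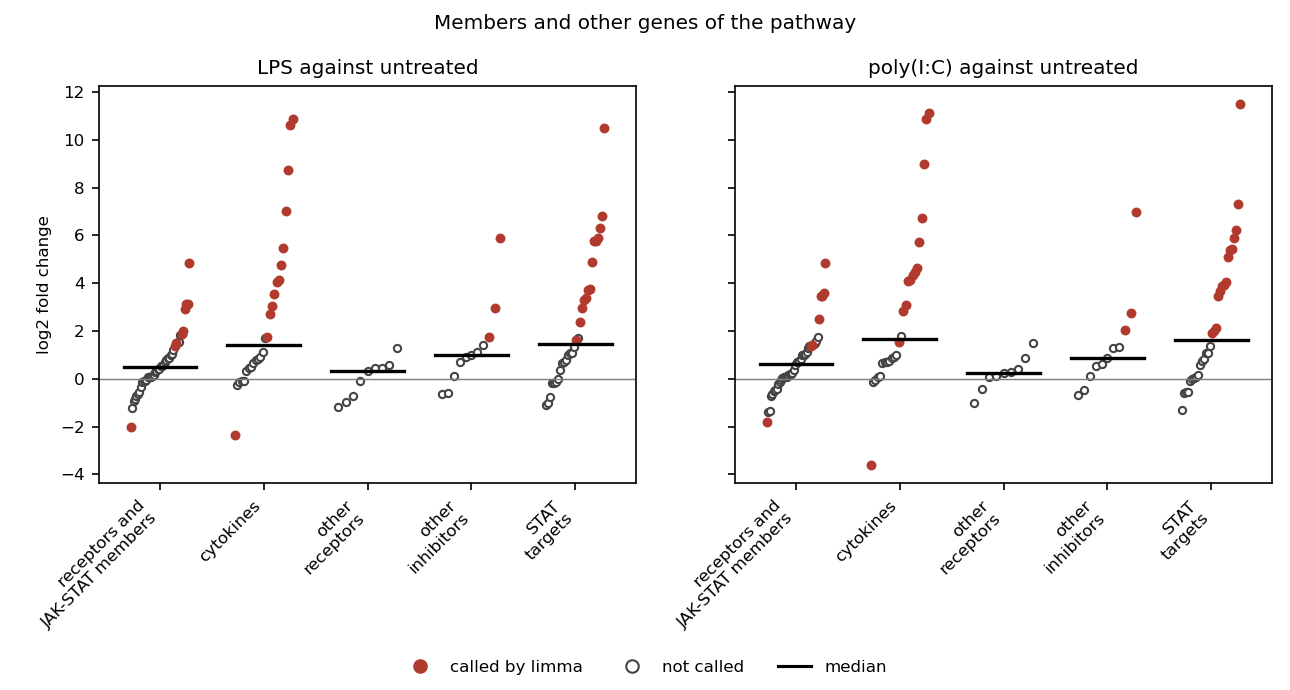
Log2 fold change of each tested probe under LPS and under poly(I:C), each against untreated cells, for the members and 4 lists of other pathway genes; filled points were called by limma and bars mark medians. Cytokines and STAT targets reach above +10, while the 9 further receptors hold no filled point.

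The direct comparison of the stimuli separated no member. No member was called in poly(I:C) against LPS in either fit, against 0.0104% of all probes (limma) and 0.0209% (array-set fit). At an unadjusted p under 0.05 limma had 0 members and the array-set fit 1, against 0.543% and 3.14% of all probes. The smallest unadjusted limma p belonged to Il6ra at -1.51 (95% interval -3.35 to +0.33), Socs2 at +0.53 (-0.34 to +1.40) and Il15ra at +0.46 (-0.35 to +1.26). These intervals still allow differences of more than 2-fold.

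The next question was whether an agonist changed these genes in stimulated cells. In no agonist comparison did limma call a member. For GW3965 with LPS against LPS, limma called 0 members, against 0.0313% of all probes. At an unadjusted p under 0.05 limma had 2 members, against 3.11% of all probes. The array-set fit called 1, against 0.407% of all probes, and it was Il15ra. Il15ra had 1.17 and 1.99 under GW3965 with LPS, against 2.96 and 3.06 under LPS. The groups did not overlap, and both agonist arrays still lay above the untreated ones. The change was -1.43 (SE 0.37, limma adjusted p = 0.52, array-set fit 0.047, set A -1.79, set B -1.07), or 2.69-fold lower. The array-set call ended without LPS 1, LPS 2 or GW3965 + LPS 1 and after quantile normalization, with changes of -1.72 to -1.13 and an adjusted p of up to 0.58. Its ligand Il15 changed by -1.44 in the same comparison (limma adjusted p = 1.00, array-set fit 0.038). Among the T and NK cell markers, whose sum was 31.9 to 39.7 under GW3965 with LPS, against 47.7 to 77.2 under LPS, the array-set fit called Klrk1 lower (-1.76, adjusted p = 0.045). Without Klrk1 the others summed to 23.0 under GW3965 with LPS, against 38.2 under LPS in set A, and to 32.7, against 29.3, in set B. Of the 13 tested, 7 were below 0, with a median of -0.13. The part of these cells in the Il15ra change was not tested.

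The other members with the smallest unadjusted p in that comparison were Stat3 probe 10310 at -1.06 (SE 0.41) and Il27ra at +0.87 (SE 0.54), neither of which passed. For GW7845 with LPS against LPS both fits called 0 members and 0% of all probes. In each fit 1 member had an unadjusted p under 0.05, against 1.44% of all probes (limma) and 5.97% (array-set fit). Stat3 probe 10310 at -1.07 (SE 0.41), Pias3 at -0.89 (SE 0.54) and Il1r1 at +0.94 (SE 0.69) came nearest. For GW3965 with poly(I:C) against poly(I:C) both fits called 0 members, against 0.0104% of all probes (limma) and 0.073% (array-set fit). At an unadjusted p under 0.05 they had 1 and 4 members, against 1.49% and 6.19% of all probes. Nearest were Stat3 probe 10310 at -1.27 (SE 0.41), Socs3 at -0.69 (SE 0.34) and Ifngr1 at +0.96 (SE 0.60). For GW7845 with poly(I:C) against poly(I:C) both fits called 0 members and 0% of all probes. At an unadjusted p under 0.05 limma had 3 members and the array-set fit 7, against 0.866% and 3.78% of all probes. Stat5a at -1.0 (SE 0.36), Csf2ra at -0.93 (SE 0.40) and Il15ra at +0.84 (SE 0.37) came nearest.

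**Figure D4:**
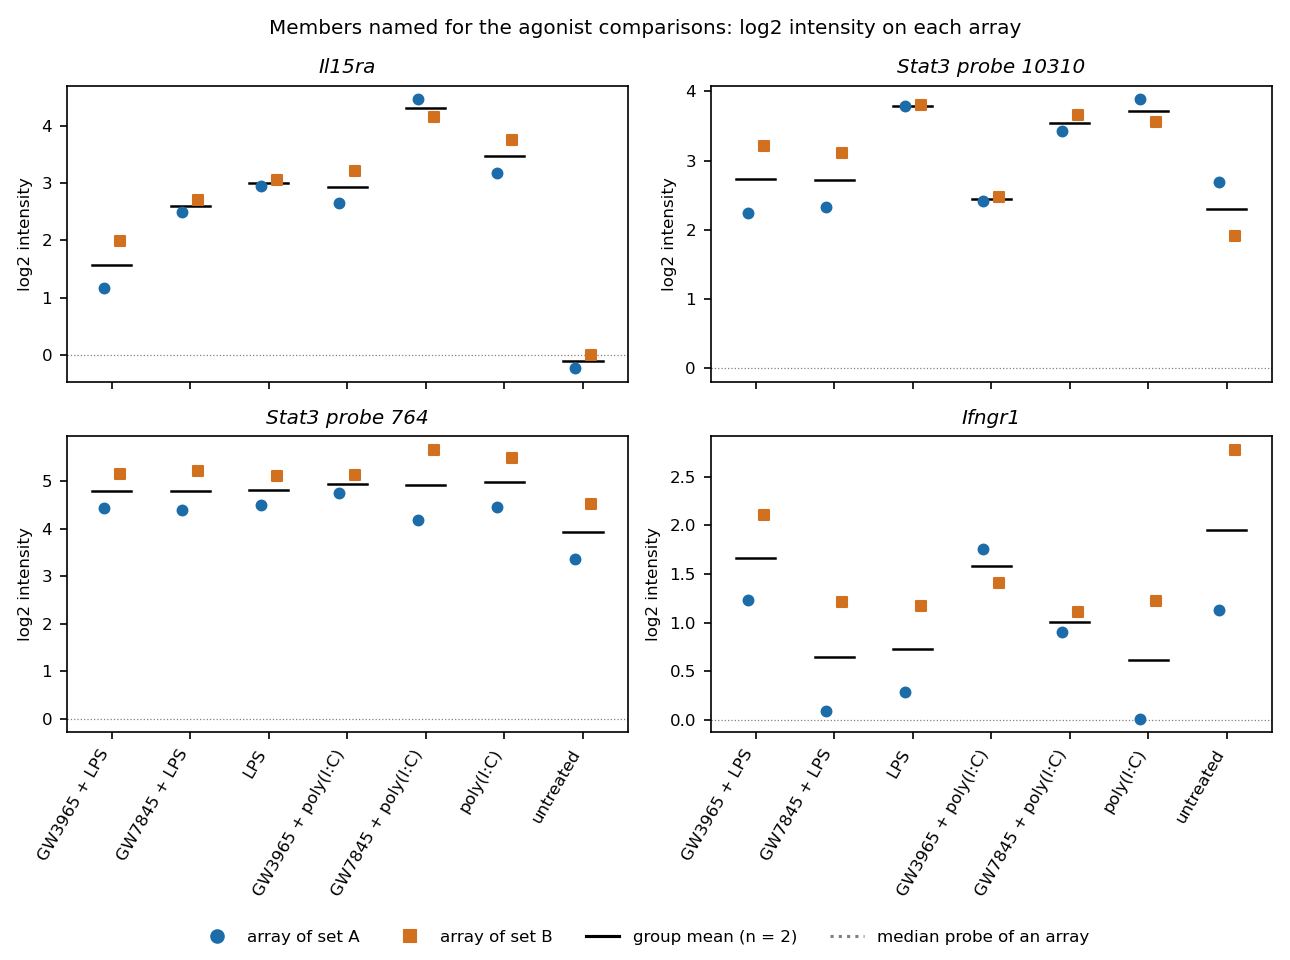
Log2 intensity of Il15ra, both Stat3 probes and Ifngr1 on each of the 14 arrays; symbols give the array set, bars the group mean of 2 arrays, and 0 is the median probe of an array. Il15ra reads 1.17 and 1.99 under GW3965 with LPS against 2.96 and 3.06 under LPS. Stat3 probe 10310 is lower under GW3965 with either stimulus, while probe 764 has an averaged change of -0.02. Limma called none of these agonist changes. The mean of probe 10310 is 2.73 under GW3965 with LPS and 2.72 under GW7845 with LPS, against 3.79 under LPS. With poly(I:C) it is 2.45 under GW3965 and 3.54 under GW7845, against 3.72 under poly(I:C) alone.

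Averaged over both stimuli, GW3965 against its absence gave 0 members in limma, against 0.198% of all probes. At an unadjusted p under 0.05 limma had 4 members, against 4.50% of all probes. The array-set fit called 2 members, against 1.15% of all probes. They were Stat3 probe 10310 and Il15ra, both lower. Stat3 probe 10310 had 2.25 and 3.20 under GW3965 with LPS, against 3.78 and 3.80 under LPS, and 2.42 and 2.47 under GW3965 with poly(I:C), against 3.88 and 3.56 under poly(I:C). All 4 arrays with GW3965 were below all 4 without it, and 3 of them lay between the untreated values of 2.69 and 1.91. The averaged change was -1.17 (SE 0.29, limma adjusted p = 0.27, array-set fit 0.042, set A -1.50, set B -0.84). Probe 764 of the same gene did not follow. It had 4.44 and 5.17 under GW3965 with LPS, against 4.51 and 5.12 under LPS, and 4.76 and 5.14 under GW3965 with poly(I:C), against 4.46 and 5.50 under poly(I:C), a change of -0.02 (SE 0.40, 95% interval -0.88 to +0.83). What part of the transcript each probe reads was not analysed here.

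Il15ra had 2.65 and 3.22 under GW3965 with poly(I:C), against 3.18 and 3.75 under poly(I:C), with 1 value overlapping, and its average over both stimuli was -0.98 (SE 0.26, limma adjusted p = 0.38, array-set fit 0.034). The array-set calls of Il15ra and of Stat3 probe 10310 each ended on leaving out any 1 of the same 7 of the 8 arrays, all but GW3965 + LPS 2, with an adjusted p of up to 0.22 and 0.27, while the changes stayed between -1.13 and -0.83 and between -1.41 and -0.93. In the same array-set fit Klrk1 was also called lower, at -1.45 (adjusted p = 0.0098), 1 of 13 T and NK cell markers tested, as were 2 of 8 neutrophil markers, Camp at -1.29 (adjusted p = 0.024) and S100a8 at -1.07 (adjusted p = 0.048). The median neutrophil marker was at -0.04, as was that of all probes, and 4 of the 8 were below 0. Of the 13 T and NK cell markers 9 were below 0, with a median of -0.13. The part of these cells in the calls was not tested. Next in line were Socs3 at -0.60 (SE 0.24, limma adjusted p = 0.91) and Ifngr1 at +0.95 (SE 0.42, limma adjusted p = 1.00), which passed in neither fit. Among the other genes of the pathway, the array-set fit called 3 of 26 cytokines lower (Il10, Il15 and Il6) and 4 of 30 STAT targets lower (Ccnd2, Cxcl10, Gbp4 and Nos2), with Nos2 at -1.73 also called by limma (adjusted p = 0.025). The shared receptor chain Il6st was called higher at +0.99 (array-set fit adjusted p = 0.049).

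GW7845 averaged over both stimuli gave 0 members in both fits, against 0% of all probes (limma) and 0.0104% (array-set fit). At an unadjusted p under 0.05 they had 2 and 8 members, against 1.68% and 5.70% of all probes. Stat5a was at -0.59 (SE 0.25), Stat3 probe 10310 at -0.62 (SE 0.29) and Socs3 at -0.51 (SE 0.24), none of which passed. The averages for GW3965 and GW7845 share the 4 arrays without an agonist and are not independent.

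The agonists were compared with each other at the treatments as given. GW7845 against GW3965, over both stimuli, gave 0 members in limma, against 0.104% of all probes. At an unadjusted p under 0.05 limma had 2 members, against 2.46% of all probes. The array-set fit called 1 member, against 0.47% of all probes. The member was Il15ra. Il15ra had 2.70 and 2.49 under GW7845 with LPS, against 1.17 and 1.99 under GW3965 with LPS, and 4.46 and 4.15 under GW7845 with poly(I:C), against 2.65 and 3.22 under GW3965 with poly(I:C). Within each stimulus the GW7845 arrays were the higher ones without overlap. The difference was +1.19 (SE 0.26, 95% interval +0.63 to +1.76, limma adjusted p = 0.22, array-set fit 0.016, set A +1.56, set B +0.82), or 2.29-fold. The array-set call ended without GW3965 + LPS 1, GW3965 + poly(I:C) 1, GW7845 + poly(I:C) 1 or either array of GW7845 with LPS, with differences of +1.01 to +1.37 and an adjusted p of up to 0.13. Of the 8 neutrophil markers S100a8 was called higher in the same fit, at +1.42 (array-set fit adjusted p = 0.016), and of the 13 T and NK cell markers none was called in either fit. Of the neutrophil markers 3 were below 0, with a median of +0.14, against +0.03 for all probes. The part of these cells in the Il15ra difference was not tested. Next were Stat5a at -0.56 (SE 0.25) and Csf2rb2 at -0.48 (SE 0.24), which did not pass.

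Whether an agonist acted differently under the 2 stimuli was tested as the difference of its effects. No member and 0% of all probes were called for GW3965 or for GW7845 in either fit. For GW3965, limma had 0 members and the array-set fit 2 with an unadjusted p under 0.05, against 0.303% and 2.86% of all probes. Il15ra at -0.90 (SE 0.53), Il27ra at +1.23 (SE 0.76) and Stat5a at +0.45 (SE 0.51) came nearest. For GW7845 the counts were 1 and 2, against 0.480% and 2.93% of all probes. Il15ra was nearest: its effect was -0.41 under LPS and +0.84 under poly(I:C), a difference of -1.25 (SE 0.53, 95% interval -2.39 to -0.11) that did not pass after adjustment (limma adjusted p = 1.00). Csf2rb2 at +0.92 (SE 0.48) and Stat5a at +0.81 (SE 0.51) followed.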

How the data were processed

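RNA from 14 samples of mouse peritoneal macrophages was hybridised to one-colour arrays as biotin-labelled cRNA, per the labels' protocols. The deposited table gives 1 linear intensity per probe and array, scaled by the authors to a median of 1 on each array (1.0007 on 1 array). The scaling method and scanner software are not given in these sources. Symbols are those of the platform annotation.

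From these intensities log2 values were taken after setting a floor of 0.0686 (log2 -3.87), the 5th percentile of positive values. Probes above the 20th percentile of at least 2 arrays were tested, 9584 in all. Group means over 14 arrays were fitted in limma 3.58.1 under R 4.3.3 with an intensity trend and 7 residual degrees of freedom (6 with the array set as a block), two-sided, with Benjamini-Hochberg adjustment. Intervals are 95% intervals of that fit, unadjusted. The series text states biological replicates without their source, so p-values measure only the spread between these samples, array sets included unless blocked. The sets were split at the largest gap in the 10th percentile of intensity. Missing values differed between them too (29 probes missing on all of set A and none of set B, 30 the reverse). Set A holds replicate 1 of every group except GW7845 with LPS, where it holds replicate 2. The labels do not state what the sets stand for, so an array batch and a preparation of cells cannot be told apart. The fit was run on simulated data only to check that it returned the mean size of added changes. Its recovery and false calls there are not reported here.

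The members and gene lists were chosen with earlier results of these data known. Named on every array are members called under a stimulus or with an agonist and the brightest probe of each role. With no agonist call, the 3 smallest unadjusted p are named. Of other lists at most 4 genes of largest change are named, and the genes Il15, Il16, Crlf3, Ghr, Klrk1, Cd3e, Cd247, Gzma, Camp, Prtn3, S100a8 and those called with GW3965 were added after their values were seen. Marker sums without Klrk1, or without Camp and S100a8, were also chosen after seeing the data. Alternatives covered the floor, an offset of 0.25, the filter, quantile normalization, the trend, the replicate block, the array set, the groups fitted and each array left out.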

Additional observations from a re-analysis of the deposited data

How the results depend on the processing

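Of 29 results for single members, 321 alternatives gave 230 values on the same side of the threshold, 91 that no longer passed, and 0 that changed direction. Socs3, Stat2 and Il15ra under both stimuli, and Jak2 and Socs2 under poly(I:C), kept their call in all 14 alternatives of their limma result. Fitting only the groups compared ended the limma calls of Socs6, Stat3 probe 10310 and Stat5a under both stimuli and of Socs2 and Stat5b under LPS. Without the intensity trend those of Stat3 probe 10310 and Stat5a under both and of Socs6 under poly(I:C) ended. Quantile normalization ended those of Stat5b under LPS and Stat3 probe 10310 under poly(I:C), and the array-set calls of Stat3 probe 764 under both and of Ifngr1 and Pias2 probe 2558 under LPS. Members called under LPS numbered 9, and 4 when only the groups compared were fitted. Under poly(I:C) they numbered 8, and 5 without the intensity trend or with only the groups compared. Leaving out 1 array gave 3 to 9 under LPS (3 without LPS 1, 5 without untreated 2) and 5 to 8 under poly(I:C) (5 without untreated 2 or poly(I:C) 1). With the array set as a block the agonist counts of 0 became 1 for GW3965 with LPS, 2 for GW3965 over both stimuli and 1 for GW7845 against GW3965. In that fit, with alternatives chosen after seeing the data, leaving out 1 array gave 0 to 1, 0 to 2 and 0 to 1 for these, 0 to 1 for GW7845 with poly(I:C) and 7 to 15 under LPS (8 without LPS 1 or untreated 2, 7 without LPS 2), and quantile normalization gave 0 for GW3965 with LPS and 1 for GW3965 over both stimuli. Quantile normalization moved the median of all probes by -0.14 under LPS and -0.17 under poly(I:C), and no member named as called changed direction with it. With the replicate number as a replicate block, 9 members were called under LPS and 9 under poly(I:C). The difference of replicate 2 minus replicate 1 correlated at 0.354 to 0.674 among 6 groups, and at -0.540 to -0.391 for GW7845 with LPS against them. The replicate numbers thus follow the array sets except in GW7845 with LPS, where they run the other way. Whether the numbers pair samples is not stated. No detection calls were used, so values near the floor are bounds.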
